A study of Mus musculus with 8 samples.

Results

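The 10 genes described here encode amino acid transporters of the plasma membrane and were chosen by name: the heavy chain Slc3a2 and its partners Slc7a5 and Slc7a11, the cationic amino acid transporters Slc7a1 and Slc7a2, the sodium-coupled neutral amino acid transporters Slc38a2, Slc38a3 and Slc38a4, and the neutral amino acid exchangers Slc1a4 and Slc1a5. All 10 were among the 35976 genes of the deposited table, and 9 were among the 14036 genes with enough counts to be tested. Messenger RNA had been sequenced from the liver of mice, all kept on a High Fat Diet. The genotype label was CTRL for 5 samples, which the titles call WT, and OPA1 LKO for 3 samples (OPA1_LKO below), which the titles call KO. The series title names the hepatocyte as the cell in which inner mitochondrial fusion, the work of the GTPase Opa1, was inhibited. The labels used here do not give the deleted exons, the promoter that drove the deletion, the age, strain or sex of the mice, or whether each sample came from its own animal. The p-values therefore set the group difference only against the spread among these samples, and part of that spread may be technical.

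Amino acids cross the hepatocyte membrane on carriers of several families. Slc3a2 encodes the CD98 heavy chain, a glycoprotein that carries no substrate itself but brings a light chain of the Slc7 family to the cell surface. Among these light chains, Slc7a5 exchanges large neutral amino acids and Slc7a11 exchanges cystine for glutamate. Several of the genes below are known targets of the transcription factor ATF4, an effector of the integrated stress response that acts through a composite element in its target genes, and Slc7a11 is also a known target of the oxidative stress factor NRF2. Liver takes up alanine, glutamine and other gluconeogenic amino acids largely through the Slc38 family, and arginine and lysine through Slc7a2.

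The promoter sequences are shown because 3 members rose together (below) and because the ATF4 element can be looked for in them. RefSeq windows of 300 bases (250 before and 50 after a transcription start, GRCm38.p6) were held for 6 of the 10 members, and the stretches of 100 bases nearest the start are printed for the only members with a match, Slc7a11 and Slc1a4, and for Slc3a2 and Slc38a2, which rose. Capitals mark TGATGCAA, a core of the ATF4 element, or its reverse complement TTGCATCA. All are read 5′ to 3′ along the gene, on the minus strand of chr3:50443614-50443713 (Slc7a11), chr11:20332710-20332809 (Slc1a4), chr19:8713898-8713997 (Slc3a2) and chr15:96699729-96699828 (Slc38a2).
Slc7a11: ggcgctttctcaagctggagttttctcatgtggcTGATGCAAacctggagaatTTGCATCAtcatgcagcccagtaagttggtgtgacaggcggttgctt
Slc1a4: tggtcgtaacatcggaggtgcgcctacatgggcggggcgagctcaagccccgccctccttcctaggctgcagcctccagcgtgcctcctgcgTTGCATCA
Slc3a2: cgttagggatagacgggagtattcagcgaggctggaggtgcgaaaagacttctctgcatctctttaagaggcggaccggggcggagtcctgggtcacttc
Slc38a2: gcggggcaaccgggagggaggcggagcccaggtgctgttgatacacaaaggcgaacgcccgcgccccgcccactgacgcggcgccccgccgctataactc
Slc7a11 held 2 matches, from -66 to -59 and from -47 to -40, counted so that the first transcribed base is 1 and the base before it is -1. Slc1a4 held 1, from -4 to 4, across the start. The letters TGATGCAA occurred on either strand in 294 of the 32851 windows of the reference table, which is 0.895%, and the looser TGATGNAA in 1304 of them, which is 3.97%. Neither form occurred in the windows of Slc3a2, Slc38a2, Slc7a1 or Slc38a4, and TGATGNAA gave no match beyond those of TGATGCAA. The starts used for Slc7a11 and Slc3a2 lie 55474 and 9472 bases inside the spans of these genes, so their windows may not be those of the transcripts that carry the reads. A match is a run of letters and not a measured binding site, and the absence of one says only that these letters are not in this window.

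Between 16076404 and 20471271 estimated reads on genes were counted per library. Opa1 itself was at 39.9 to 57.6 CPM (counts scaled to the same library total) in CTRL and 24.7 to 34.4 CPM in OPA1_LKO, with log2 fold change -0.63 ± 0.17 (SE) and an edgeR Benjamini-Hochberg adjusted p of 0.0539, and -0.69 ± 0.16 without CTRL replicate 1 (edgeR adjusted p = 0.0272). No other of the 8 fits that left out 1 library called Opa1, and its edgeR adjusted p reached 0.236 without OPA1_LKO replicate 1. All 8 hepatocyte markers were present in every library, and none of them passed the test with all 8 libraries. CTRL replicate 1 stood apart: Apoe was at 134 CPM there against 20800 to 33200 CPM in the other 7 libraries, Xist at 8.13 CPM against at most 0.185 CPM with the Y-linked Eif2s3y at 35.8 CPM, and all 9 macrophage markers were highest in it. CTRL replicate 3 held the highest level of 3 of the 6 bile duct markers. Values without 1 or both of these libraries are given beside some of the results whose calls they change, but not all. Without both, 1 of the 8 hepatocyte markers fell, where 21.3% of all genes were called higher or lower. In whole liver, fewer cells of a type and less RNA per cell cannot be told apart.

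Of the 9 transporters tested, 3 rose in OPA1_LKO and 0 fell. These were Slc3a2, the shared heavy chain, Slc1a5, the exchanger of glutamine and other neutral amino acids, and Slc38a2, the system A carrier that is regulated by amino acid supply. Over all 14036 genes, 6.03% were called, 3.34% higher and 2.69% lower. The median log2 fold change was 0.83 over the 9 transporters and -0.03 over all genes tested, and 7 of the 9 were above 0. Slc38a3 and Slc38a4, by far the most abundant of the set, had differences close to 0. Without CTRL replicate 1, 4 of the 9 rose, the added gene being Slc7a5, where 6.65% of all genes were called higher and 12.2% either way. The same 4 genes were called without CTRL replicates 1 and 3 together, a choice made after seeing the data, with 10.9% of all genes called higher and 21.3% either way. Without OPA1_LKO replicate 1, or without OPA1_LKO replicate 3, Slc3a2 was the only member called, where 1.01% and 1.1% of all genes were called higher.

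**Figure D1:**
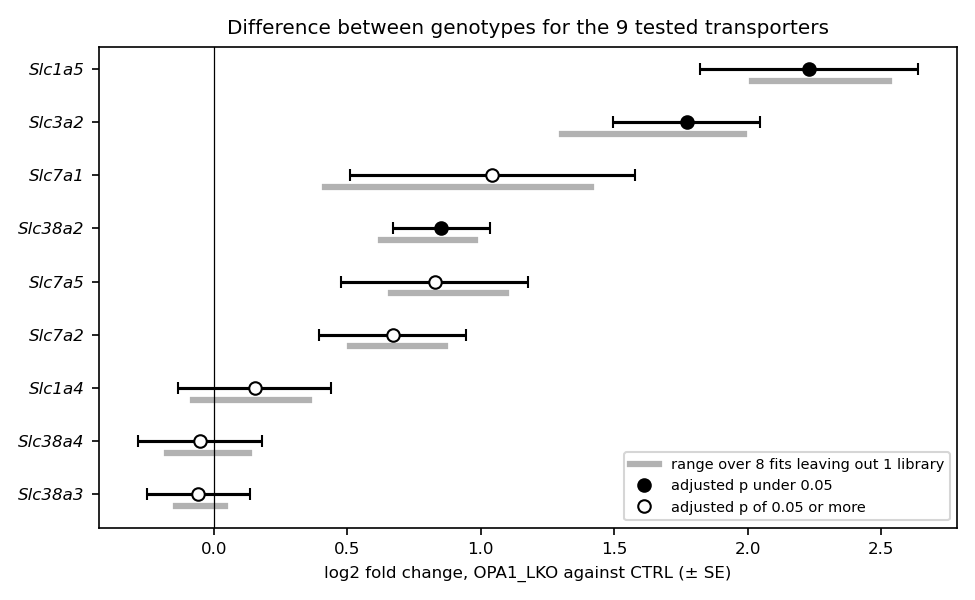
Log2 fold change of each tested transporter in OPA1_LKO against CTRL (x axis, points with SE), filled where the edgeR adjusted p was under 0.05, above a grey bar for the range over the 8 fits that each left out 1 library. Slc1a5, Slc3a2 and Slc38a2 are filled, with Slc1a5 at 2.23 and Slc3a2 at 1.77, and Slc38a3 and Slc38a4 lie at -0.06 and -0.05.

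Slc3a2 lies at chr19:8706882-8723369 and encodes the subunit on which 6 light chains depend. Its CPM was 41.4, 24.6, 27.7, 23.7 and 28.5 in CTRL replicates 1 to 5 and 154.5, 67.6 and 76.5 in OPA1_LKO replicates 1 to 3. Every OPA1_LKO library was above every CTRL library, a separation that 8% of all genes tested showed in this direction, and OPA1_LKO replicate 1 was far above the other OPA1_LKO libraries. The mean rose from 29.2 ± 7.12 CPM (SD, n = 5) to 99.5 ± 47.8 CPM (SD, n = 3). This was a 3.41-fold rise, with log2 fold change 1.77 ± 0.28 and an edgeR adjusted p of 0.00758 (Benjamini-Hochberg over all genes). The rise was called in each of the 8 fits that left out 1 library, with log2 fold changes from 1.30, without OPA1_LKO replicate 1, to 1.98 and adjusted p-values by edgeR from 0.00261 to 0.0265.

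Slc7a5, at chr8:121881146-121907686, encodes the LAT1 light chain, which takes up leucine and other large neutral amino acids in growing cells and is low in normal liver. CTRL replicates 1 to 5 had 2.81, 1.74, 1.29, 0.960 and 1.60 CPM, and OPA1_LKO replicates 1 to 3 had 3.09, 3.64 and 2.25 CPM, from 14 to 81 estimated reads per library. The groups overlapped only through CTRL replicate 1, which was above OPA1_LKO replicate 3. The log2 fold change was 0.83 ± 0.35 and did not pass (edgeR, Benjamini-Hochberg adjusted p = 0.186). Without CTRL replicate 1 it was 1.10 ± 0.30 and passed, at an edgeR adjusted p of 0.0425. No other of the 8 fits that left out 1 library called Slc7a5, and its edgeR adjusted p reached 0.415 without OPA1_LKO replicate 1. Macrophage markers summed to 1199 CPM in CTRL replicate 1, 241 to 479 CPM in the other CTRL libraries and 243 to 385 CPM in OPA1_LKO, with 0 of the 9 called and none at 0 in any library, and their part in the level of Slc7a5 was not tested.

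Slc7a11, at chr3:50364936-50499087, encodes the cystine carrier xCT and had almost no reads in these livers. CTRL replicates 1 to 5 held 9, 1, 0, 0 and 4 estimated reads of it and OPA1_LKO replicates 1 to 3 held 7, 6 and 2, and the low-count filter removed it from the test. The 0 reads in CTRL replicates 3 and 4 allow up to 0.168 and 0.206 CPM, taking a limit of 3 reads, which covers counting error only. The mean was 0.153 ± 0.205 CPM in CTRL against 0.237 ± 0.106 CPM in OPA1_LKO, and the groups overlapped. Without the low-count filter its log2 fold change was 0.62 ± 1.07 and did not pass (edgeR, Benjamini-Hochberg adjusted p = 0.775). With so few reads only a large difference could have been seen. The promoter window with 2 matches to the ATF4 element is that of this gene, but it may not belong to the transcript that carries the reads.

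**Figure D2:**
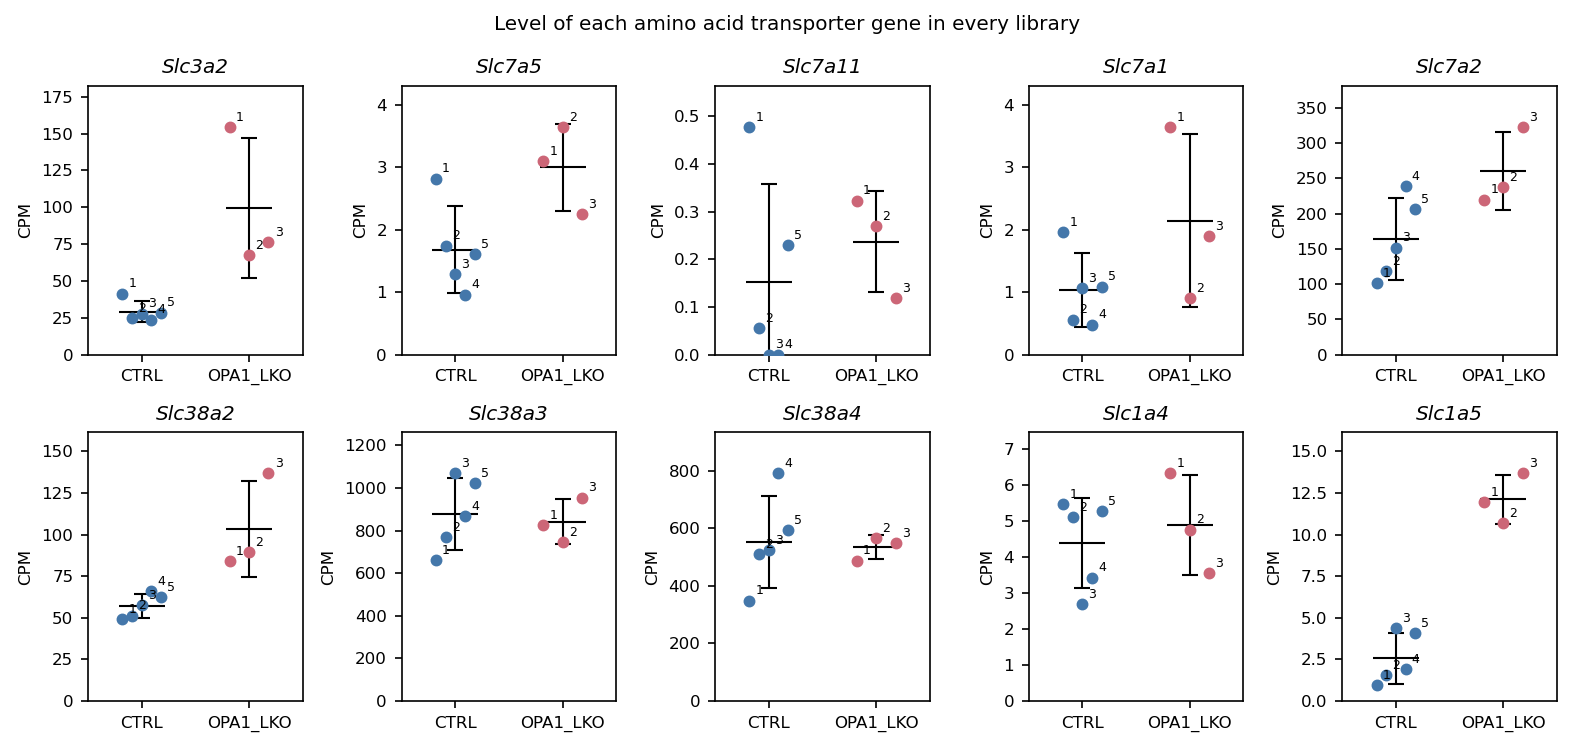
CPM of the 10 transporter genes (y axes from 0, a scale for each gene) in the 5 CTRL and 3 OPA1_LKO libraries, each point numbered by its replicate, with the mean and SD in black. The OPA1_LKO points of Slc3a2, Slc38a2 and Slc1a5 all lie above the CTRL points, and the SD of Slc7a11 in CTRL extends below 0 and is drawn only down to it.

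Because the heavy chain carries no substrate itself, its level was set beside those of its light chains on the TPM scale. This scale corrects for transcript length (transcript abundance scaled to the same total). Slc3a2 was at 37.6, 18.2, 17.4, 14.3 and 19.3 TPM in CTRL and 135.7, 58.1 and 59.0 TPM in OPA1_LKO. The summed TPM of Slc7a5, Slc7a6, Slc7a7, Slc7a8, Slc7a10 and Slc7a11 was 10.9, 4.80, 3.94, 1.77 and 3.61 in CTRL and 5.99, 6.99 and 4.08 in OPA1_LKO. The heavy chain thus exceeded all listed light chains together in every library, by 3.45, 3.80, 4.42, 8.05 and 5.34 times in CTRL and 22.7, 8.31 and 14.4 times in OPA1_LKO. The ratios of the groups did not overlap, but CTRL replicate 4 and OPA1_LKO replicate 2 lay next to each other. Slc7a8, a carrier of large and small neutral amino acids, made up 38.5% to 49.4% of the light chain TPM in CTRL and 30.5% to 31.9% in OPA1_LKO. Slc7a7, which exports cationic amino acids, made up 36.0% to 39.3% and 40.3% to 44.7%, and Slc7a5 8.38% to 14.1% and 16.9% to 18.7%. Slc7a10 and Slc7a11 fell under the low-count filter, and none of the other 4 light chain genes was called in the edgeR fit, with log2 fold changes of -0.51 ± 0.44 for Slc7a8, 0.21 ± 0.38 for Slc7a7 and 1.13 ± 0.55 for Slc7a6. The ratios and shares are descriptions with no test, and the light chain sum was highest in CTRL replicate 1, the library with the highest macrophage markers.

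**Figure D3:**
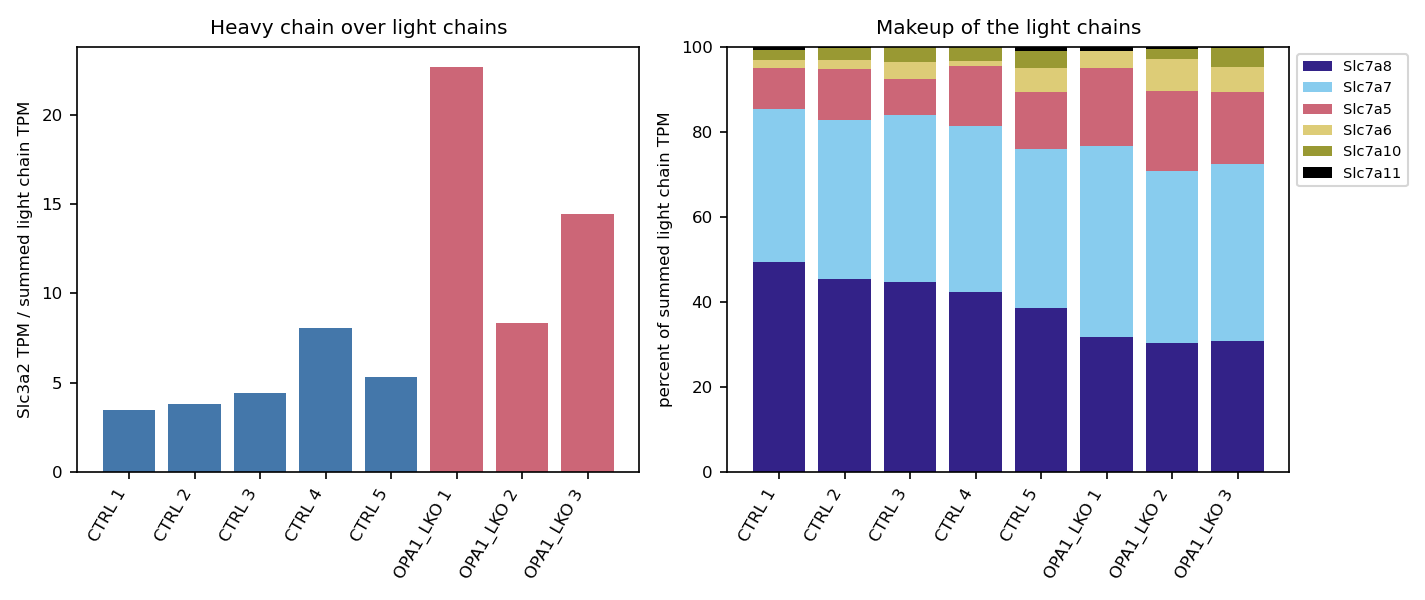
Left, Slc3a2 TPM divided by the summed TPM of 6 light chain genes in each library; right, the percent of that sum held by each light chain gene. The ratio runs from 3.45 to 8.05 in CTRL and from 8.31 to 22.7 in OPA1_LKO, and the share of Slc7a8 is lower in all 3 OPA1_LKO libraries than in any CTRL library.

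The cationic carriers differed greatly in level. Slc7a2, at chr8:40862341-40922070, which brings arginine, lysine and ornithine into hepatocytes, was at 101.75, 118.1, 151.8, 239.1 and 206.9 CPM in CTRL and 219.9, 237.2 and 323 CPM in OPA1_LKO. In CPM the groups overlapped through CTRL replicate 4, whereas in TPM they did not, at 16.9 to 28.0 in CTRL and 34.6 to 44.0 in OPA1_LKO. The log2 fold change was 0.67 ± 0.28 and did not pass the test (edgeR, Benjamini-Hochberg adjusted p = 0.177). It ranged from 0.51 to 0.86 over the fits that left out 1 library, with 0 of the 8 calling it. On the log2(TPM + 1) scale the difference was 0.86 ± 0.22, with a limma adjusted p of 0.0647. Slc7a1, at chr5:148327410-148399904, the carrier of the same substrates in most other tissues, was at 1.97, 0.562, 1.06, 0.480 and 1.09 CPM in CTRL and 3.65, 0.900 and 1.89 CPM in OPA1_LKO. These values rest on 7 to 79 estimated reads per library, and the groups overlapped. Its log2 fold change of 1.04 ± 0.53 did not pass (edgeR, Benjamini-Hochberg adjusted p = 0.268) and was 0.42 ± 0.59 without OPA1_LKO replicate 1, the highest library.

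In the Slc38 family the member induced by amino acid shortage in many cells rose and the abundant liver members did not pass. Slc38a2, at chr15:96687392-96699728, was at 49.1, 51.3, 57.5, 66.1 and 62.6 CPM in CTRL and 84.2, 89.5 and 136.7 CPM in OPA1_LKO. The CTRL libraries lay close together and all below the OPA1_LKO libraries, of which replicate 3 was the highest. The rise from 57.3 ± 7.21 to 103.5 ± 28.9 CPM was 1.80-fold, with log2 fold change 0.85 ± 0.18 and an edgeR adjusted p of 0.0254 (Benjamini-Hochberg). It was near the threshold: 4 of the 8 fits that left out 1 library called it, and the edgeR adjusted p rose to 0.0642 and 0.0522 when CTRL replicates 2 and 5 were left out in turn, and to 0.0545 and 0.0884 when OPA1_LKO replicates 1 and 3 were. The log2 fold change stayed between 0.63 and 0.98 in these 8 fits.

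Slc38a3, at chr9:107651154-107668968, the system N carrier of glutamine, histidine and asparagine, was at 662, 768, 1068, 866 and 1022 CPM in CTRL and 825, 747 and 954 CPM in OPA1_LKO. All 3 OPA1_LKO libraries lay within the CTRL range, and the log2 fold change was -0.06 ± 0.19 (edgeR, Benjamini-Hochberg adjusted p = 0.882). Slc38a4, at chr15:96994816-97055956, a system A carrier typical of hepatocytes, was at 349, 511, 523, 790 and 593 CPM in CTRL and 487, 566 and 547 CPM in OPA1_LKO. Here too the OPA1_LKO libraries lay inside the CTRL range, with log2 fold change -0.05 ± 0.23 (edgeR, Benjamini-Hochberg adjusted p = 0.916). Neither gene has a direction in these data: with upper-quartile scaling the values were 0.03 for Slc38a3 and 0.04 for Slc38a4, and on the log2(TPM + 1) scale 0.13 and 0.18. The RefSeq table places Gm32840 within the span of Slc38a4, and the other 9 members overlap no gene of that table.

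Of the neutral amino acid exchangers, Slc1a5 rose and Slc1a4 did not pass. Slc1a5, at chr7:16781334-16798274, encodes ASCT2, which trades glutamine for other neutral amino acids and is low in normal hepatocytes. It was at 0.956, 1.57, 4.36, 1.92 and 4.07 CPM in CTRL and 11.96, 10.7 and 13.7 CPM in OPA1_LKO. The OPA1_LKO libraries lay close together, at 231 to 259 estimated reads, and all far above the CTRL libraries, at 18 to 78 estimated reads. The mean rose 4.69-fold from 2.58 ± 1.54 to 12.1 ± 1.49 CPM, with log2 fold change 2.23 ± 0.41 and an edgeR adjusted p of 0.0146 (Benjamini-Hochberg), the largest fold change among the 9 transporters tested. In the 8 fits that left out 1 library the log2 fold change was 2.01 to 2.53. The edgeR call was lost without OPA1_LKO replicate 1, at an adjusted p of 0.0662, and without OPA1_LKO replicate 3, at 0.0630.

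Slc1a4, at chr11:20302180-20332713, encodes ASCT1, a carrier of serine, alanine, cysteine and threonine. It was at 5.47, 5.11, 2.68, 3.43 and 5.27 CPM in CTRL and 6.33, 4.77 and 3.55 CPM in OPA1_LKO, so the groups overlapped almost wholly. Its log2 fold change was 0.15 ± 0.29 (edgeR, Benjamini-Hochberg adjusted p = 0.783) and -0.08 without OPA1_LKO replicate 1. Slc1a5 TPM divided by Slc1a4 TPM was 0.396, 0.467, 2.94, 0.938 and 1.28 in CTRL and 3.07, 3.82 and 7.37 in OPA1_LKO. The exchanger with the higher TPM was therefore Slc1a4 in 3 of the 5 CTRL libraries and Slc1a5 in all 3 OPA1_LKO libraries.

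Markers of other cells were set beside these rises, in a fit that called 3.34% of all genes higher and 2.69% lower. Of 6 bile duct markers, 3 rose in OPA1_LKO (Spp1, Sox9 and Krt7), and their summed level was 17.5 to 66.3 CPM in CTRL and 140 to 202 CPM in OPA1_LKO, with Cftr at 0 in CTRL replicates 1 and 2. Spp1, which injured hepatocytes and macrophages can also express, made up most of that sum in every library except CTRL replicate 3. Epcam and Krt19, the defining epithelial markers of the duct, were highest in CTRL replicate 3, at 16.8 and 22.3 CPM. In the other CTRL libraries Epcam was at 0.506 to 0.892 CPM, against 5.15 to 10.48 CPM in OPA1_LKO, and Krt19 at 0.319 to 1.03 CPM, against 2.13 to 5.67 CPM. Without CTRL replicate 3 all 6 duct markers rose, among them Epcam at 3.48 ± 0.34 (edgeR Benjamini-Hochberg adjusted p = 0.00187), where 3.21% of all genes were called higher. Without OPA1_LKO replicate 3, Spp1 alone rose, where 1.1% of all genes were called higher. Of 5 cell division markers 1, Cdk1, rose, a call kept in 1 of the 8 edgeR fits that left out 1 library (without CTRL replicate 1), with sums of 4.39 to 11.9 CPM in CTRL and 13.5 to 21.6 CPM in OPA1_LKO. Of 9 stellate cell markers 0 were called, and 6 rose without CTRL replicates 1 and 3 together, where 10.9% of all genes were called higher. The stellate cell sums were 180 to 253 CPM in CTRL and 252 to 563 CPM in OPA1_LKO. Of the tested markers of lymphocytes (6), neutrophils (2 of 5 listed), endothelium (7), macrophages (9) and red cells (5), 0 were called with all libraries. Without CTRL replicate 1 the red cell gene Hbb-bs fell (edgeR Benjamini-Hochberg adjusted p = 0.0487), without OPA1_LKO replicate 2 a lymphocyte gene rose, and Ly6g and Retnlg of the neutrophil list were at 0 in some libraries. The part of these cells in the levels of Slc3a2, Slc1a5 and Slc38a2 was not tested.

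Levels can be ranked between genes only on the length-corrected TPM scale. Slc38a3 was first in both groups, with 383.8 ± 47.6 TPM in CTRL against 416.5 ± 19.5 TPM in OPA1_LKO, followed by Slc38a4 at 149.1 ± 28.2 and 167.6 ± 18.9 TPM. Together they made up 86.9% to 91.4% of the summed TPM of the 10 genes in CTRL and 74.5% to 81.8% in OPA1_LKO. In CTRL, Slc7a2 at 21.5 ± 5.84 TPM and Slc3a2 at 21.4 ± 9.27 TPM shared the next place, Slc7a2 being higher in 3 of the 5 libraries. In OPA1_LKO, Slc3a2 at 84.3 ± 44.6 TPM stood above Slc7a2 at 38.8 ± 4.78 TPM in all 3 libraries. Slc38a2 came next after these in both groups, at 13.2 ± 1.24 and 26.5 ± 4.91 TPM. Below it the CTRL order was Slc1a4 at 1.23 ± 0.504, Slc1a5 at 1.16 ± 0.604 and Slc7a5 at 0.538 ± 0.313 TPM, neighbours whose ranges overlapped. In OPA1_LKO, Slc1a5 at 6.36 ± 0.694 TPM was clear of Slc1a4 at 1.497 ± 0.511 and Slc7a5 at 1.03 ± 0.315 TPM, and those genes overlapped each other. Slc7a1, at 0.160 ± 0.118 and 0.357 ± 0.244 TPM, and Slc7a11, at 0.0220 ± 0.0295 and 0.0333 ± 0.0208 TPM, came last. The summed TPM of the 10 genes was 554 to 685 in CTRL and 711 to 796 in OPA1_LKO. In CPM the sums overlapped, at 1215 to 1992 in CTRL and 1728 to 2059 in OPA1_LKO, so a higher total depends on the scale.

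**Figure D4:**
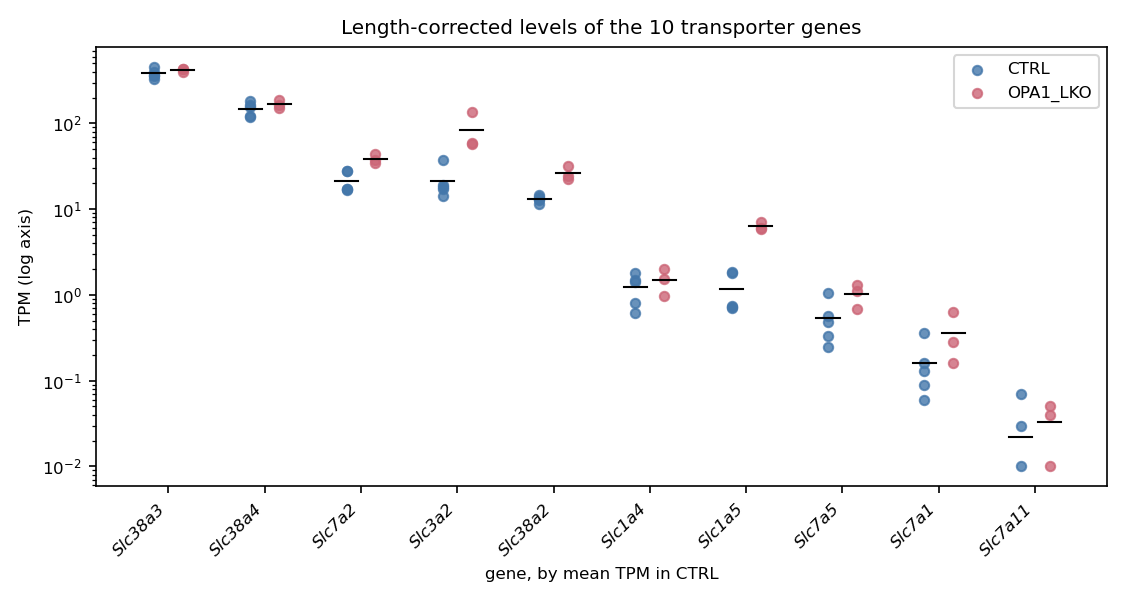
TPM of the 10 transporter genes on a log axis, ordered by their mean in CTRL, with a point for each library and a line at each group mean; the CTRL libraries listed at 0 for Slc7a11 (replicates 3 and 4) are not drawn. Slc38a3 and Slc38a4 lie above all others, and Slc3a2 and Slc1a5 change places with their neighbours in OPA1_LKO.

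The deposited transcript table separates isoforms as RSEM estimated them. Shares within a gene were compared for 13 transcripts of the 6 members with more than 1 transcript that held a mean share between 5% and 95%, in genes with a mean of at least 1 TPM, by permuting the group labels of the libraries in all 56 possible ways (an exact test, two-sided). None passed after Benjamini-Hochberg adjustment over the 13, a number at which no transcript could pass on its own. The smallest p was 0.0179, the smallest the 56 divisions allow, with an adjusted p of 0.232 in this exact permutation test. It belonged to NM_001199217.1, the main transcript of Slc38a3, at 86.9% ± 2.34 in CTRL and 92.6% ± 1.81 in OPA1_LKO, where all 3 OPA1_LKO libraries were above all CTRL libraries. The predicted transcript XM_006526733.2 carried most of Slc3a2 in both groups, at 87.5% ± 5.59 and 92.7% ± 3.04. For Slc1a5, XR_391052.1, a predicted non-coding transcript, held 30.7% ± 18.9 in CTRL and 42.4% ± 6.01 in OPA1_LKO, so part of the Slc1a5 level lies on a model without a reading frame. The protein-coding NM_009201.2 of Slc1a5 had a mean of 0.374 ± 0.206 TPM in CTRL against 1.68 ± 0.491 TPM in OPA1_LKO. Slc7a2 reads were split between NM_007514.3 and XM_006509251.3 in shares that ran from 22.6% to 99.7% for the first, and its isoform makeup cannot be ordered between the groups.

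Among 37 other amino acid transporter genes, 22 were tested, 0 rose and 1 fell, with a median log2 fold change of -0.00. These counts are close to the shares over all genes, of which 3.34% were called higher and 2.69% lower. Slc36a1, the proton-coupled carrier of lysosomal and plasma membranes, was at 21.8, 20.5, 22.5, 18.2 and 23.3 CPM in CTRL and 10.3, 10.7 and 10.2 CPM in OPA1_LKO. Both groups were tight and did not overlap, and the gene fell by 1.03 ± 0.13 on the log2 scale (edgeR, Benjamini-Hochberg adjusted p = 0.00244). The call was lost on the log2(TPM + 1) scale, where the difference was -0.67 with a limma adjusted p of 0.0650. The 6 most abundant of the list were Slc6a13, a carrier of GABA and taurine, with 85.2 ± 16.7 TPM in CTRL against 103.1 ± 16.4 TPM in OPA1_LKO, the betaine carrier Slc6a12, the glutamate carrier Slc1a2 of pericentral hepatocytes, the glycine carrier Slc6a9, Slc38a10, and Slc16a10, which carries aromatic amino acids. None of these 6 was called, and their log2 fold changes ran from -0.36 for Slc6a9 to 0.27 for Slc6a12. Without CTRL replicates 1 and 3 together, a choice made after seeing the data, 4 of the 22 rose and 2 fell. In that fit 10.9% of all genes were called higher and 21.3% either way.

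**Figure D5:**
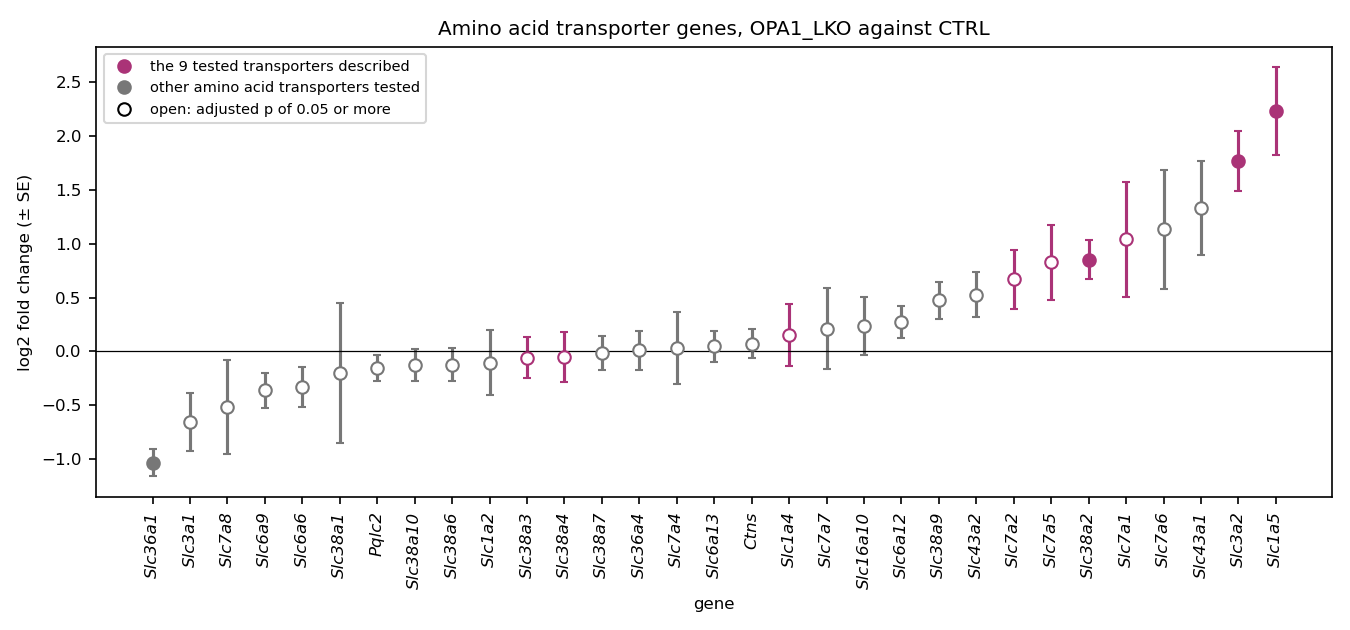
Log2 fold change with SE of the 9 tested transporters described here (purple) and of 22 other amino acid transporter genes (grey), in order of the change, filled where the edgeR adjusted p was under 0.05. Slc3a2 and Slc1a5 lie at the upper end and Slc36a1, at -1.03, at the lower end.

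The programme of ATF4, to which several of these transporters are known to belong, was described from a list that holds none of them. Of 23 tested genes, 9 rose and 0 fell, with a median log2 fold change of 0.80 against -0.03 over all genes. Over all genes, 3.34% were called higher. The list count changed to 12 when CTRL replicate 1 was left out, where 6.65% of all genes were called higher. It changed to 5 when OPA1_LKO replicate 1 was left out, where 1.01% of all genes were called higher. The listed genes of smallest p were Ddit4, an inhibitor of mTORC1 signalling, with log2 fold change 2.85 ± 0.27, and Asns, asparagine synthetase, at 4.61 ± 0.57. The next were the stress regulator Nupr1 at 4.87 ± 0.63 and the pseudokinase Trib3 at 2.84 ± 0.38. Asns was at 0.224 to 2.44 CPM in CTRL and 37.7, 13.5 and 21.4 CPM in OPA1_LKO replicates 1 to 3. Asns, Nupr1, Trib3 and Slc3a2 were each highest in OPA1_LKO replicate 1 and lowest in replicate 2, whereas Slc38a2, Slc1a5 and Ddit4 were highest in replicate 3. With 3 libraries such an order carries no test.

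Of 10 NRF2 targets, 0 rose and 1 fell, where 3.34% of all genes were called higher and 2.69% lower. The target that fell was Gclc, a subunit of an enzyme on the path from cysteine to glutathione. Its log2 fold change was -1.16 ± 0.16 (edgeR, Benjamini-Hochberg adjusted p = 0.00423). Osgin1, Gclm and Txnrd1 had values of -1.31 ± 0.39, -0.56 ± 0.17 and -0.42 ± 0.14 and did not pass. Without CTRL replicate 1, 2 of the 10 fell, Osgin1 then having an adjusted p of 0.0384 by edgeR. In that fit 12.2% of all genes were called either way. The list's median was -0.34. Among 25 enzymes that use the carried amino acids, 4 rose and 0 fell, with a median of 0.24, where 3.34% of all genes were called higher. Those that rose were Asns, which is also on the ATF4 list, and Tat, which degrades tyrosine, at 1.61 ± 0.26. The others were the aspartate aminotransferase Got1 at 1.37 ± 0.30 and the urea cycle enzyme Asl at 1.03 ± 0.25. Leaving out 1 library gave 2 to 5 rises, with 2 when CTRL replicate 5 or any of the OPA1_LKO libraries was left out. There was 1 fall without OPA1_LKO replicate 2. The share of all genes called higher moved too. It was 6.65% without CTRL replicate 1, where 5 enzymes rose, and 1.01% and 1.1% without OPA1_LKO replicates 1 and 3. Asns and Tat were called in all 8 such fits, Got1 in 4 and Asl in 2.

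Since amino acid metabolism is zoned along the liver lobule, genes of its zones were counted too. Over all genes, 3.34% were called higher and 2.69% lower, and no test set the small counts below apart from these shares. The median log2 fold change was 0.26 over the periportal list and -0.26 over the pericentral list, against -0.03 over all genes. In the pericentral list 1 gene, Rhbg, was above 0. Of 10 periportal genes, 1 rose (Pck1, which commits carbon to gluconeogenesis, at 1.05 ± 0.22) and 2 fell (Cyp2f2 at -0.89 ± 0.16 and Ctsc at -1.17 ± 0.28), of which 5, 6 and 3 of the 8 fits that left out 1 library kept Pck1, Cyp2f2 and Ctsc, while Sds, which deaminates serine, at 1.14 ± 0.30, had an edgeR Benjamini-Hochberg adjusted p of 0.0535, which became 0.0420 without CTRL replicate 1 and 0.0489 without CTRL replicate 4. Of 10 pericentral genes, 0 rose and 1 fell, the transcription factor Tbx3 at -0.89 ± 0.23, which was called in 1 of those 8 fits, while Oat, Rhbg and Lect2 had values of -0.76 ± 0.32, 0.80 ± 0.35 and -0.30 ± 0.17 and did not pass.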

How the data were processed

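RNA had been extracted from liver and made into stranded mRNA libraries, per the labels' protocols. MultiQC, RSEM, STAR and StringTie, and the mouse build mm10, are named in the submitters' processing notes. Tool order, tool versions and annotation release remain not given in the sources used here. What the authors deposited are RSEM expected counts, not normalised, and TPM, scaled for length and depth, per gene and per transcript, with 1 column per library and 0 columns of other samples. RSEM splits reads that match several places by estimation, so isoform shares are uncertain.

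Expected counts were rounded. The default filterByExpr rule (minimum count 10, minimum total 15) left 14036 of 35976 genes, scaled by TMM. OPA1_LKO (n = 3) was compared with CTRL (n = 5) in edgeR 4.0.16 (R 4.3.3) by its quasi-likelihood test, the model holding only the group, and p-values were adjusted by Benjamini-Hochberg over all genes tested; under 0.05 was called. The SE of a log2 fold change was its size divided by the square root of F. CPM used TMM-scaled library sizes. Alternatives were other scaling factors, no filter, DESeq2 1.42.0, limma 3.58.1 with voom, limma on log2(TPM + 1) and log2(TPM + 0.1) for genes with a mean of at least 1 TPM, a replicate block, and leaving out each library. The fit was tested on simulated counts. Limits for 0 reads take 3 reads.

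Members, gene lists and tests were chosen with earlier results of these data known. Named genes were all members, other transporters that passed or were among the 6 of highest mean TPM, Opa1, and the 4 genes of smallest p in each of 5 lists; marker genes were named only where their list stood apart or one was at 0. The light chain genes come from the heavy chain comparison. Apoe, Xist, Eif2s3y, Hbb-bs and, in the closing section, Slc43a1, Slc7a9, Slc6a19, Slc7a15 and Slc1a3 were chosen after their values were seen. Promoters were read from a RefSeq table of GRCm38.p6, the assembly of mm10, and the gene positions from a RefSeq gene table of that assembly.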

Additional observations from a re-analysis of the deposited data

Results flagged for a closer look

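Slc3a2 in CTRL replicate 1 was at 41.4 CPM, far from the other 4 CTRL libraries at 23.7 to 28.5 CPM. The gap to the nearest library was 0.729 of the range of the group, above Dixon's critical value of 0.71 for 5 samples, a criterion that chance alone meets in about 1 in 20 groups. All 3 OPA1_LKO libraries were still above this library, and without it the log2 fold change of Slc3a2 was 1.93 ± 0.26 with an edgeR Benjamini-Hochberg adjusted p of 0.00261.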

How the results depend on the processing

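Slc3a2, Slc1a5 and Slc38a2 were the 3 called transporters under size factors of DESeq2's kind, upper-quartile scaling, no filter, DESeq2, limma-voom and both TPM scales, and they were among 4 without CTRL replicates 1 and 3 together. Leaving out 1 library gave 1 to 4 called transporters. Same-numbered samples are not stated to be paired, and their deviations correlated at r = 0.072, 0.0537 and 0.175. With a replicate block 4 transporters were called, Slc7a2 being added at 1.07 (edgeR adjusted p = 0.0183). Of 22 other transporters 1, Slc36a1, was called (on the log2(TPM + 1) scale it was Slc43a1 instead); the count was 2 with limma-voom, 0 on the log2(TPM + 0.1) scale (limma; Slc36a1 had an adjusted p of 0.0576), 6 without CTRL replicates 1 and 3, and 1 to 2 when 1 library was left out. The median of all genes moved from -0.03 to 0.09 on the log2(TPM + 1) scale and 0.11 on the log2(TPM + 0.1) scale. Slc38a3, at -0.06, turned to 0.0268 with upper-quartile factors, 0.0379 with the replicate block, 0.1253 and 0.1256 on the TPM scales, and ran from -0.1431 to 0.0419 with 1 library left out. Slc38a4, at -0.05, turned to 0.0437, 0.2326, 0.1827 and 0.1839 in the same settings and ran from -0.1767 to 0.1318 with 1 library left out, and Slc1a4 ran from -0.0792, without OPA1_LKO replicate 1, to 0.3576. The cause of these changes was not tested. The test of transcript shares could not pass a lone transcript, so its 0 calls in every setting say nothing on stability. Slc7a11, Slc7a1 and Slc7a5 rest on at most 81 reads per library, which limits what can be seen.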

Other observations

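Slc43a1, a carrier of large neutral amino acids of the LAT3 type that needs no heavy chain, was at 1.17 to 6.997 CPM in CTRL and 7.62 to 10.48 CPM in OPA1_LKO, so that the groups did not overlap. In this direction 8% of all genes tested showed such a separation. Its log2 fold change was 1.34 ± 0.44 and did not pass (edgeR, Benjamini-Hochberg adjusted p = 0.102). With limma-voom the value was 1.59 (Benjamini-Hochberg adjusted p = 0.0404), and without CTRL replicate 4 it was 1.71 (edgeR adjusted p = 0.0473). No other of the 8 fits that left out 1 library called Slc43a1.

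CTRL replicate 3 held transporters of absorptive epithelium that the other libraries nearly lacked. Slc7a9 was at 3.72 TPM there and at most 0.22 TPM elsewhere, Slc6a19 at 2.77 against at most 0.09 TPM, and Slc7a15 at 1.64 against at most 0.36 TPM. CTRL replicate 1 held Slc1a3, a glutamate carrier, at 1.65 TPM against at most 0.08 TPM in the other libraries. None of these 4 genes passed the low-count filter.

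In CPM and in TPM, Slc38a2 and Slc7a2 were both lowest in OPA1_LKO replicate 1 and highest in replicate 3, as were the enzymes Got1, Asl and Sds. These genes were grouped after their values were seen. Among the other enzymes named above, Tat had this order in CPM but not in TPM, at 586, 787 and 774 TPM in OPA1_LKO replicates 1 to 3. Asns was highest in replicate 1. With 3 libraries a shared order carries no test.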
